A study of Mus musculus with 3 samples.

Results

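The genes described here encode the myogenic regulatory factors Myf5, Myod1, Myog and Myf6 and the Mef2 factors, followed across 3 conditions of C2C12, a mouse myoblast line that fuses into myotubes when serum is withdrawn. Every probe whose name on the array equalled 1 of the 8 gene names was taken, and 6 genes were found with 1 probe each, of 18356 gene names on the array. They were Myf5, Myod1, Myog, Myf6, Mef2a and Mef2d. Mef2b and Mef2c were not analysed here, since no spot carried either name. The measurements came from single-dye oligonucleotide arrays hybridized with amplified total RNA, 1 array for each condition. Parental cells kept for 2 days in medium with 10% fetal bovine serum gave the array C2C12-PR. The same line kept for 2 days with 2% horse serum, which starts differentiation, gave C2C12-DF. A subline that overexpresses Wnt4, kept for 2 days in the 10% serum medium, gave C2C12-W4-08. This subline, called the Wnt4 clone below, was 1 clone, made by transfecting a plasmid that drives tagged Wnt4 from a cytomegalovirus promoter and by selection in blasticidin, whereas the parental cells were neither transfected nor selected. Its array belonged to another array order, and transgene, cloning, selection and array order cannot be told apart.

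The myogenic regulatory factors are basic helix-loop-helix proteins that pair with E-proteins, bind E-boxes and switch on muscle transcription. Myf5 and Myod1 act early and commit cells to the muscle lineage, whereas myogenin, the product of Myog, drives terminal differentiation, and Myf6, also called MRF4, acts mainly in late differentiation and in mature fibres. The Mef2 proteins are MADS-box factors that do not start the muscle program alone but act together with the helix-loop-helix factors on muscle promoters.

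A signal is the median brightness of a spot minus the mean of 1750 blank spots, scaled to a median of 25 in C2C12-PR and, on the other arrays, to a median ratio of 1 over all probes detected on both. A probe was taken as detected when its spot exceeded the blank mean by 2 SD. The lowest detected signals were 2.72, 2.35 and 0.697 in the order C2C12-PR, C2C12-DF and the Wnt4 clone, which holds below wherever 3 signals follow each other, and the blank spots were dimmest on the last array. The arrays detected between 71.8% and 92.8% of 23473 probes. There were no replicates, so no test was made and a ratio of 2-fold served only as a mark of size. As a yardstick, the log2 ratio of 24 spots of the most variable positive control had an SD of 0.16 for C2C12-DF over C2C12-PR, 0.52 for C2C12-W4-08 over C2C12-PR and 0.41 for C2C12-W4-08 over C2C12-DF. This SD combined with that of the blank spots is called the spot spread below, and it covers position on the slide and background but not culture or labelling. It is the scatter around the control's own mean log2 ratio, and the distance of that mean from 0, given further below, is not part of it. Wnt4 served as a check of the labels: it was undetected in C2C12-PR and had signals of 4.63 in differentiating cells and 115 in the Wnt4 clone. Desmin and the other myoblast markers were detected on all arrays (8 of 8), with a summed signal of 3375, 5187 and 1596. Fewer cells of a type and less RNA per cell cannot be told apart in such cultures.

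The promoter of Myog is shown because this gene had by far the widest range of signals among the factors, and that of Myf5 because it was the factor gene that stood highest in the Wnt4 clone relative to both other arrays. The 250 bases before an annotated transcript start were taken from RefSeq on the mouse assembly GRCm38.p6, where 6 of the 8 genes had a window. The Myog window ends at the start of the gene, whereas that of Myf5 lies inside the annotated span of the gene. Capitals mark matches on either strand to the E-box (CANNTG), the MEF3 motif of muscle promoters (TCAGGTT) and a core of the MEF2 box (CTANNNNTA).
Myog, chr1:134289754-134290003, plus strand: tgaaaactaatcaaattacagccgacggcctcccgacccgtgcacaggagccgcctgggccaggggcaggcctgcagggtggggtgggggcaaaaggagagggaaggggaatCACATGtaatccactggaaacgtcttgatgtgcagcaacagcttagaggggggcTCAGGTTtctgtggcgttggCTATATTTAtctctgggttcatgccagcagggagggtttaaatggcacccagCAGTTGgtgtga
Myf5, chr10:107486135-107486384, minus strand: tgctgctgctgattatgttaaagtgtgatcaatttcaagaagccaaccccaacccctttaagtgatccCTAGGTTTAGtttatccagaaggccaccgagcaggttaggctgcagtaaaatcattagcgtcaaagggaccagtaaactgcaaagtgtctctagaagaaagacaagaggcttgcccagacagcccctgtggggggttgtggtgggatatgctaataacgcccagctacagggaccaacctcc
The Myog window held 2 E-boxes, which began at -138 and -12 relative to the transcript start, a MEF3 motif at -84 and the MEF2 core at -64. Of 32851 windows of the same length in the RefSeq table, 66.2% held at least 1 E-box, 31.8% held at least 2 E-boxes, 3.49% a MEF3 motif and 19.0% the MEF2 core. The full MEF2 box consensus, present in 2.92% of all windows, was in neither sequence, and the core was searched after this had been seen. The Myf5 window held no E-box, and its run of capitals is the MEF2 core on both strands, the matches overlapping by all but 1 base. The windows of Mef2a and Mef2d held none of these motifs. A match only describes these letters, and no binding was measured.

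**Figure D1:**
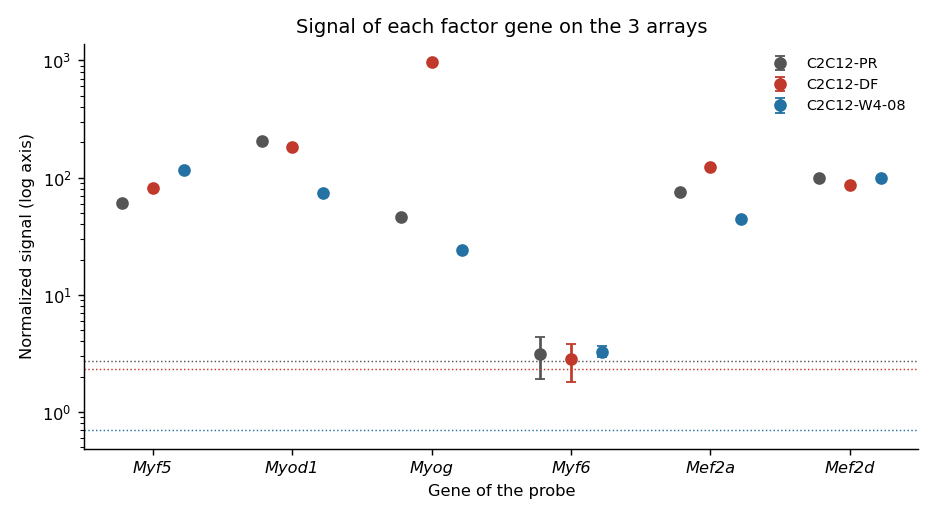
Normalized signal (log axis) of the 6 factor genes on the C2C12-PR, C2C12-DF and C2C12-W4-08 arrays, 1 array each. Bars show 1 SD of the blank spots, most of them smaller than the points, and dotted lines the lowest detected signal of each array in the same colour; Myog spans the widest range, from 23.96 to 961, and Myf6 lies close to the detection limit in C2C12-PR and C2C12-DF.

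Among the factors that commit cells to muscle, Myf5 stood highest and Myod1 lowest in the Wnt4 clone. The Myf5 signal was 60.9 in C2C12-PR, 81.8 in differentiating cells and 117 in the Wnt4 clone, with 1 SD of the blank spots at 1.22, 0.988 and 0.346. It was therefore lowest in proliferating parental cells and highest in the Wnt4 clone, and moved from percentile 76.5 of brightness in C2C12-PR to 80.6 and 84.9. Its log2 ratio was 0.43 in differentiating cells and 0.94 in the Wnt4 clone relative to C2C12-PR, just short of 2-fold. Both exceeded the spot spread of 0.16 and 0.52, while the ratio of 0.51 between C2C12-W4-08 and C2C12-DF lay close to its spread of 0.41. Myf5 lay in a print block whose median probe was itself at a log2 ratio of 0.50 in the Wnt4 clone, the highest of the 48 block medians. Within that block Myf5 stood at percentile 74.8, against 90.2 among all probes. Centred on its block, Myf5 came to 0.24 in differentiating cells and 0.44 in the Wnt4 clone, below the spot spread in the latter. With the ring around each spot as background instead of the blank spots, it came to 0.23 and 1.06, the latter past 2-fold. The sign held under every setting that gave a value, with ranges of 0.03 to 0.63 and 0.44 to 1.56, and the part of slide position in the difference was not tested beyond these settings. The Myf5 ratio of C2C12-W4-08 to C2C12-DF came to 0.19 with block centring, inside its spread of 0.41. Over all settings that ratio ran from 0.19 to 0.93.

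The Myod1 signal was 206.5 in C2C12-PR, 183.7 in differentiating cells and 74.4 in the Wnt4 clone. The parental arrays were thus close, with a log2 ratio of -0.17 against a spot spread of 0.16, and the clone was lower than both. Myod1 was at percentile 90.7 of brightness in C2C12-PR, 89.6 in differentiating cells and 79.4 in the Wnt4 clone. The log2 ratio of C2C12-W4-08 was -1.47 to C2C12-PR, or 2.78-fold lower, and -1.30 to C2C12-DF. Only 5.47% of all probes compared with C2C12-PR lay as low or lower, and the median probe of its print block was at 0.04, so that block centring moved the ratio only to -1.51. The ring around the Myod1 spot read 76 scanner units in C2C12-PR, 111 in differentiating cells and 94 in the Wnt4 clone. In the clone this was 53.1% of the spot itself, against 14.6% and 26.4% on the parental arrays. With the local background the ratio to C2C12-PR was larger in size, at -1.94. It stayed between -2.15 and -0.95 in all settings, the end nearest to 0 being the deposited table without scaling, where the median probe stood at 0.57. For C2C12-DF the range ran from -0.31 to 0.09, so that no direction can be given there.

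Myog, the gene of the terminal differentiation factor, gave a signal of 46.5 in C2C12-PR, 961 in differentiating cells and 23.96 in the Wnt4 clone. It stood at percentile 72.8 of brightness in C2C12-PR, at 97.5 after serum withdrawal and at 62.8 in the clone. The spot medians before any subtraction were 133, 2122 and 60 scanner units, in the same order. C2C12-DF was 20.7-fold above C2C12-PR, a log2 ratio of 4.37, and C2C12-W4-08 was 40.1-fold below C2C12-DF. Of 15869 probes detected on all arrays, 26 had a log2 ratio of at least 4 in differentiating cells, and Myog ranked at percentile 99.9 of the probes compared. Around the Myog spot in differentiating cells the ring read 728 scanner units, 34.3% of the spot. Such rings were common around bright spots there, since spots of at least 1000 scanner units had a median ring of 35.0%. Subtracting the ring gave a log2 ratio of 4.09, and over all settings it lay between 3.31 and 4.44. It was above 0 in every setting that gave a value. With spot means in place of spot medians Myog dropped out, because a single blank spot with very bright pixels on the C2C12-PR array raised the detection limit, and it was 4.34 when detection was judged by the spot median.

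In the Wnt4 clone the log2 ratio of Myog to C2C12-PR was -0.95, larger than the spot spread of 0.52 and just short of 2-fold. Its print block had a median of 0.41 there, and within that block Myog was at percentile 2.56, against 12.1 among all probes. Block centring gave -1.37 and the local background -1.24, both past 2-fold, while the deposited table gave -0.50 before scaling. The ratio was below 0 in every setting that gave a value.

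Myf6, the gene of the factor that persists in mature muscle, was dim on every array and close to the detection limit on the parental ones. Its signals were 3.14 in C2C12-PR, 2.81 in differentiating cells and 3.28 in the Wnt4 clone, and the blank SD of 1.22, 0.988 and 0.346 was large beside them on the parental arrays. The spot itself read 28, 24 and 12 scanner units. All log2 ratios were inside the spot spread, at -0.16 in differentiating cells and 0.07 in the Wnt4 clone relative to C2C12-PR, with spreads of 0.77 and 0.78. With the local background Myf6 was not detected in C2C12-PR. Signs also changed between settings, with the ratio of C2C12-W4-08 to C2C12-DF running from -0.58 to 1.43, so a difference was not detectable at this brightness. Myf5 and Myf6 are neighbours on chromosome 10, and Myf5 was well above the limit on all arrays while Myf6 was not.

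**Figure D2:**
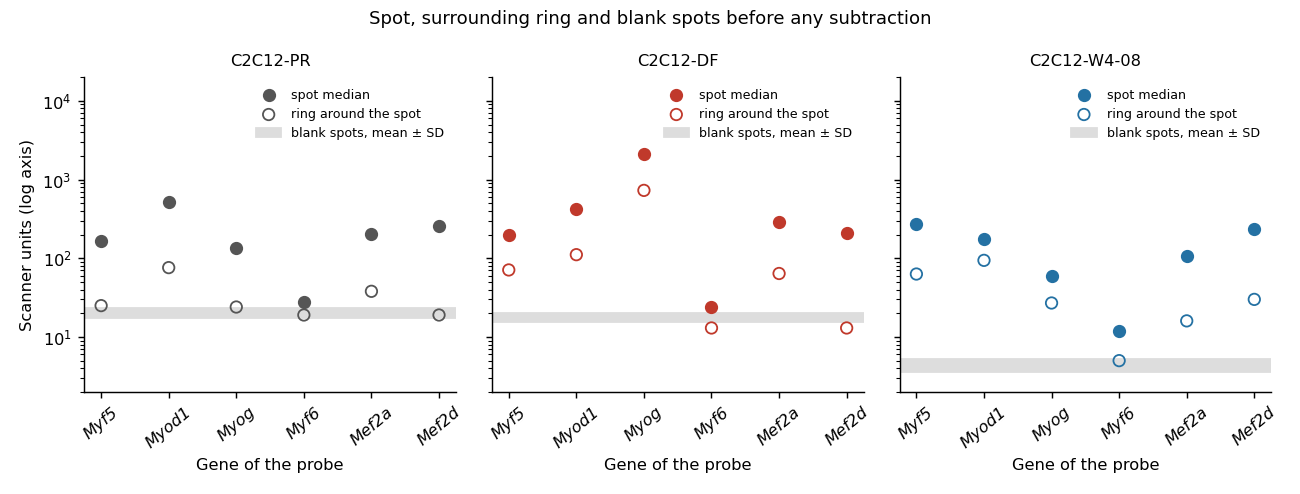
Spot medians (filled), rings around the spots (open) and the mean ± SD of the blank spots (grey band) in scanner units on a log axis, for the 6 factor genes on each array. The Myog spot in C2C12-DF reads 2122 with a ring of 728, the Myod1 ring in C2C12-W4-08 reads 94 beside a spot of 177, and the blank level lies lowest in C2C12-W4-08, at 4.38.

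Of the Mef2 genes, Mef2a varied over the arrays and Mef2d hardly did. The Mef2a signal was 75.7 in C2C12-PR, 122.9 in differentiating cells and 44.6 in the Wnt4 clone, and thus the same order as Myog over a much narrower range. Relative to C2C12-PR its log2 ratio was 0.70 in differentiating cells and -0.76 in the Wnt4 clone, outside the spot spread of 0.16 and 0.52 but within 2-fold. Set directly against C2C12-DF, the clone was at -1.46, which is past 2-fold. These ratios kept their sign wherever they were computed. The ranges were 0.49 to 0.88, -0.92 to -0.25, and -1.54 to -0.96, in the same order. The second range came nearest to 0 in the deposited table without scaling, and the local background gave -0.36 there. Both values lay inside the spot spread of 0.52, as did -0.39 with local background and block centring and -0.49 with normexp.

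Mef2d had signals of 98.4 in C2C12-PR, 86.4 in differentiating cells and 99.8 in the Wnt4 clone, at percentiles 83.1, 81.2 and 83.1 of brightness. Its log2 ratio was -0.19 in differentiating cells, near the spot spread of 0.16, and 0.02 in the Wnt4 clone, well inside the spread of 0.52. Both changed sign between settings, with ranges of -0.33 to 0.11 and -0.12 to 0.52. These bounds leave room for a difference smaller than 2-fold in either comparison.

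**Figure D3:**
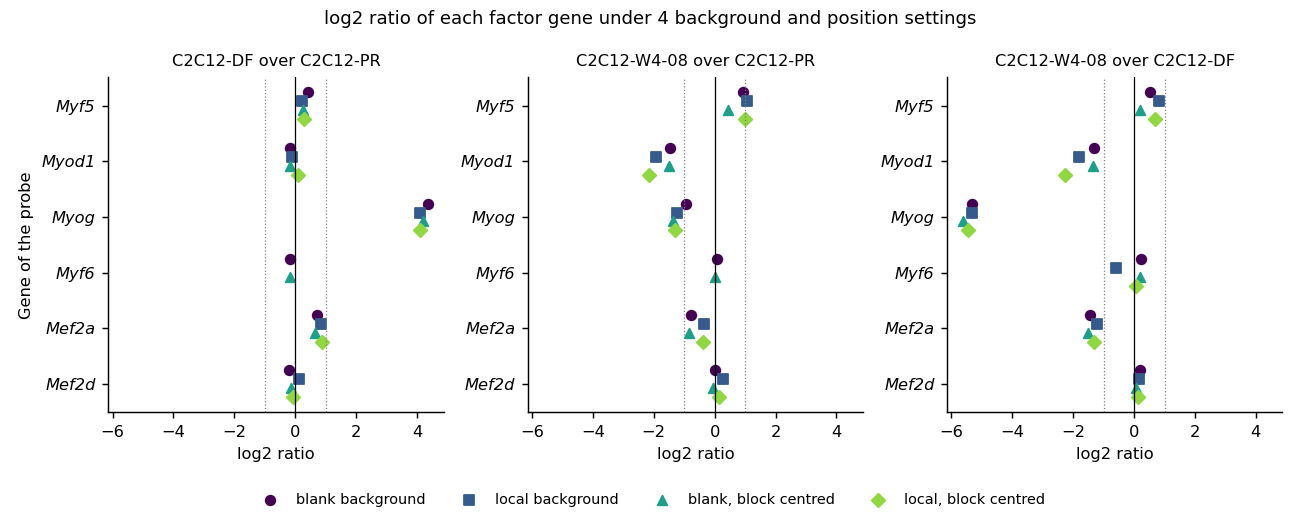
log2 ratio of each factor gene in the 3 comparisons, with blank or local background and with or without centring of each print block; dotted lines mark 2-fold. Myog in C2C12-DF stays between 4.09 and 4.37 under these settings and Myod1 in C2C12-W4-08 between -2.15 and -1.47, whereas Myf5 in C2C12-W4-08 moves between 0.44 and 1.06; Myf6 has no value where it was not detected.

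Counted together, 1 of 6 factor genes was at least 2-fold higher in differentiating cells than in C2C12-PR, namely Myog, where 4.91% of all probes compared were, and none was 2-fold lower, where 4.54% were. In the Wnt4 clone against C2C12-PR none was 2-fold higher, where 8.55% of all probes were, and Myod1 alone was 2-fold lower, where 11.0% were. Against C2C12-DF, Myog, Myod1 and Mef2a were 2-fold lower in the Wnt4 clone, where 12.5% of all probes were, and none was higher, where 9.37% were. The median log2 ratio of the 6 genes was 0.13, -0.37 and -0.55 in these comparisons, beside 0.03 for all probes in the last and 0 by scaling in the others. With 6 genes, 1 gene is a larger share than any of the background values, and nothing particular to the family can be read from counts of this size. The first and second comparisons share C2C12-PR and the last is their difference.

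**Figure D4:**
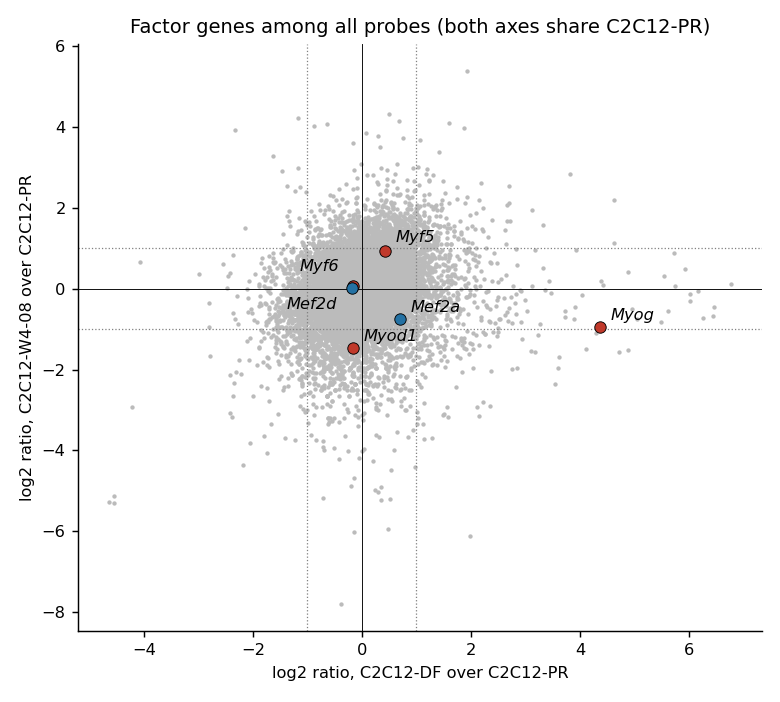
Each grey point is 1 of 15869 probes detected on all arrays, placed by its log2 ratio to C2C12-PR in C2C12-DF (horizontal) and in C2C12-W4-08 (vertical), with the helix-loop-helix genes in red and the Mef2 genes in blue; dotted lines mark 2-fold. Both axes share the C2C12-PR array; Myog stands far to the right at 4.37 and -0.95, in a sparse region, and Mef2d and Myf6 overlap near the centre.

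Genes whose pattern was most like that of a factor were found among 8717 gene-named probes as the nearest in the 2 log2 ratios to C2C12-PR. They are descriptions over 3 arrays, of which C2C12-PR enters both ratios. Nearest to Myog was 1110002H13Rik, the array's name for the fusion gene myomaker, at a distance of 0.17, and it was the only probe within 0.25. It had signals of 54.3, 1065 and 25.3. The slow troponin T gene Tnnt1 (0.52) and Srl, the gene of the calcium-binding protein sarcalumenin (0.60), came next. The other factors had many close probes, with 56 within 0.25 of Myod1, 87 of Mef2a, 266 of Myf5 and 813 of Mef2d, so that the nearest probes named for them are a few of many. The nearest to Mef2a was Chrna1, which encodes the acetylcholine receptor subunit alpha of muscle, at 0.02, with signals of 761, 1223 and 446, followed by Uqcrh, a respiratory chain subunit, and the probe NP_001033002.1. Ctbp1, a transcriptional corepressor, BC028440 and Sh3gl1 were nearest to Myf5. Metap1, Tmem109 and Adarb1 were nearest to Myod1, and Stra13, BC023055 and Muc20 to Mef2d.

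The other genes of the pathway were taken as lists, to be read against the shares of all probes past 2-fold given above and a median of 0 by scaling. Of the E-proteins, the obligate partners of the helix-loop-helix factors, Tcf3 (carried as Tcfe2a) had signals of 125.2, 120.2 and 160.6. Tcf12 had 135.6, 126.6 and 65.3, so neither differed by 2-fold in differentiating cells and Tcf12 was lower in the clone, at a log2 ratio of -1.05. Tcf4 was detected only in the Wnt4 clone, at 1.56. This is below the lowest detected signals of C2C12-PR and C2C12-DF, 2.72 and 2.35, so no difference can be read from it. Of the upstream factors, which act on the genes of the helix-loop-helix factors, 1 of 8 compared was 2-fold higher and 0 lower in differentiating cells. Of 9 compared in the clone, 2 were higher and 4 lower, and the median log2 ratio was -0.12 in both comparisons. The transcriptional cofactor gene Eya4, with signals of 2.72, 5.55 and 21.8, and the homeobox gene Pitx3, at a log2 ratio of 1.32, were the higher ones in the clone, and Eya4 lay at the detection limit of C2C12-PR.

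Genes of proteins that inhibit the helix-loop-helix factors were the list with most lower members in differentiating cells, with 5 of 15 compared at least 2-fold lower, 1 higher and a median log2 ratio of -0.12. In the clone 2 of 15 were lower and 1 higher, with a median of -0.34. Id1 had signals of 271, 90.5 and 203, Id2 had 227, 32.5 and 179, and Id3 had 124, 41.2 and 197. The Id proteins bind E-proteins and keep them from the myogenic factors, and all 3 of these genes stood lowest in differentiating cells, at log2 ratios of -1.58, -2.80 and -1.60. Twist2 (-1.07) and Msc (-1.06), which encode competing helix-loop-helix repressors, were the others, and the higher gene was Zeb1, carried as Zfhx1a, at 1.25. Id4 was not detected on any array. The Id genes of the clone were within 2-fold of C2C12-PR, at -0.42, -0.34 and 0.66. There the lower genes were Hey1, a target and effector of Notch signalling, with signals of 79.9 in C2C12-PR, 86.4 in differentiating cells and 13.6 in the Wnt4 clone and a log2 ratio of -2.55, and Twist2 at -1.11. Snai2, a zinc finger repressor that competes for E-boxes, was the higher one at 1.64.

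In differentiating cells, fewer genes of each cofactor list than of the inhibitors were past 2-fold. Of 8 corepressors, 1 was lower in differentiating cells, and 0 were higher or lower in the Wnt4 clone, with medians of 0.02 and 0.35. Of 7 coactivators, 0 were past 2-fold in differentiating cells and 1 was lower in the Wnt4 clone, the acetyltransferase gene Kat2b (carried as Pcaf) at -1.32, and the medians were -0.05 and -0.13. Of 9 kinases and receptors that act on the factors, 1 was lower in differentiating cells and 3 were lower in the Wnt4 clone, with medians of -0.44 and -0.63. The latter include Mapk12, the p38 isoform of muscle, at -1.38, with signals of 125.2, 100.5 and 48.1. Of 9 factors that cooperate on muscle promoters, 1 was higher in differentiating cells, and 2 were higher and 1 lower in the Wnt4 clone, with medians of -0.13 and -0.12. The lower one was Vgll2, a muscle cofactor of the Tead proteins, with signals of 388, 354 and 113.6 and a log2 ratio of -1.77. Csrp3 of this list was not detected in C2C12-PR and is named here because it was left out of these counts. Its signal was 51.7 in differentiating cells and 3.28 in the Wnt4 clone. Against the lowest detected signal of C2C12-PR, 2.72, it was more than 2-fold higher in differentiating cells only. Tead3 and Mrtfb were left out for the same reason and were dim in differentiating cells, at 2.81 and 3.72.

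Most known target genes of the factors in muscle were far higher in differentiating cells. In differentiating cells, 15 of 22 compared were at least 2-fold higher and 0 lower, with a median log2 ratio of 3.68, the extremes being the troponin C genes Tnnc2 at 6.01 and Tnnc1 at 5.93. The count ranged from 6 to 18 over the settings, with the lowest from the spot mean, where few dim probes were detected. Of the same genes in the clone, 0 were higher and 5 lower, with a median of -0.53, and the counts ranged from 0 to 4 higher and from 2 to 7 lower. Among those with a signal of at least 20 on either array, the M-cadherin gene Cdh15 was lowest there, with signals of 704, 1162 and 93.8 and a log2 ratio of -2.91, followed by the integrin gene Itga7 at -1.70. The dim Cdkn1c, a cell cycle inhibitor gene named after its value was seen, lay between them at -2.51, with a signal at the detection limit of the clone. Ckm, Myh3 and Cav3 were not detected in C2C12-PR and are named here because they were left out of these counts. Their signals were 165.9, 5.09 and 7.83 in differentiating cells and 5.87, 1.13 and 1.99 in the Wnt4 clone. Set against the lowest detected signal of C2C12-PR, 2.72, Ckm was far more than 2-fold higher in differentiating cells. In the clone, at 5.87, it passed 2-fold only narrowly. With a blank SD of 1.22 in C2C12-PR, a difference of that size is not resolved so close to the limit. Cav3 passed this bound in differentiating cells only, and Myh3 in neither.

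**Figure D5:**
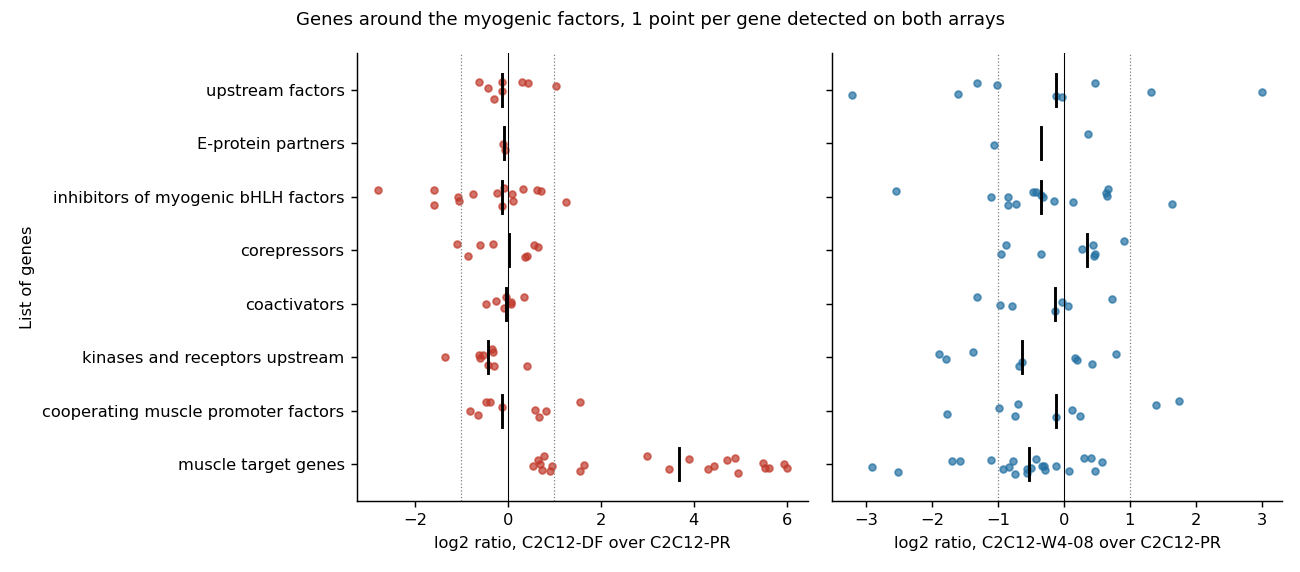
log2 ratio to C2C12-PR of the genes around the factors, in C2C12-DF (left) and C2C12-W4-08 (right), 1 point per gene detected on both arrays, grouped by list; black bars are list medians and dotted lines mark 2-fold. The target genes reach 6.01 in C2C12-DF with a median of 3.68, against a median of -0.53 in C2C12-W4-08.

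Markers of other cell types were compared on the same arrays, because C2C12 cells can turn towards other lineages. The summed signal of 6 adipocyte markers was 172, 133 and 350, and that of 4 leukocyte markers was 38.7, 32.6 and 121. Among the adipocyte markers Pparg had signals of 48.9, 17.9 and 97.2, Lpl had 103, 92.8 and 216.6, and Fabp4, undetected in C2C12-PR, gave 2.81 and 13.2. Among the leukocyte markers Cd68 had 21.3, 19.7 and 92.9 and Csf1r had 14.7, 12.9 and 26.5, so that these markers stood highest in the clone. They were named after their values were seen. Adipoq and Ibsp, which mark mature adipocytes and osteoblasts, were not detected on any array. Ptprc and Emr1, the remaining leukocyte markers of the list, were at or below the detection limit on every array. Of 5 osteoblast markers with a probe the sum was 13.5, 13.9 and 26.1, of 5 chondrocyte markers 58.3, 42.7 and 49.3, of 6 fibroblast markers 231, 631 and 91.2, and of 4 endothelial markers 0, 5.09 and 10.4. Undetected probes added nothing to these sums, and the detection limits differed between arrays. Of 4 fibroblast markers compared in the clone, 1 was 2-fold higher, Dcn with 15.1, 373 and 69.2. The 2 lower ones were Lum and Col1a1, the latter with 203, 233 and 10.6. The summed myoblast signal given above was lowest in the Wnt4 clone, as were Myod1, Myog and Mef2a. Des, Cdh15 and Itga7, the brightest of these myoblast markers, also belong to the target genes. The myoblast sum is therefore not a readout separate from the target list. The part of these marker differences in the values of the factors was not tested.

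The positive control spots also differed between the arrays. In the Wnt4 clone over C2C12-PR the 3 controls of 24 spots each averaged log2 ratios of 1.09, -0.58 and -0.78, against 0.24, 0.10 and 0.14 in C2C12-DF over C2C12-PR. In C2C12-W4-08 over C2C12-DF they averaged 0.85, -0.67 and -0.92. The control at 1.09 had a median signal of 83.6 in C2C12-PR, in the range of the factor genes, and the others were far brighter, at 6826 and 6476. The ratios of Myf5, Myog and Mef2a between C2C12-W4-08 and C2C12-PR are of the size of the control values there. Between C2C12-W4-08 and C2C12-DF, Myf5 at 0.51 was smaller in size than each control value. Myod1 at -1.30, Mef2a at -1.46 and Myog at -5.33 were larger in size than each of them. The part of the control differences in these ratios was not tested.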

How the data were processed

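Total RNA of each condition was measured on 1 array, and groups came from the sample labels. The authors deposited scanner intensities of each spot and its surrounding ring as read, before any correction. Their processed signals, also deposited, are background-subtracted values with each array's median at 25.0, on a linear scale and with no centring across arrays; which spots gave its background stays unknown. Here the blank mean was subtracted, probes below the blank mean plus 2 SD were not detected, and each array was brought to the level of C2C12-PR by the median ratio. One scanner unit was 0.413, 0.457 and 0.431 of signal in the order C2C12-PR, C2C12-DF, C2C12-W4-08, and the number of arrays limits the precision.

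The members and lists were chosen with earlier results of these data known. Named were all members, Wnt4, up to 2 genes at each end of each pathway list (past 2-fold, signal of at least 20 on 1 array), and the 3 probes nearest to a member. A list gene with several probes entered by its brightest. Some genes named by this rule are not reported here. The 14 fixed alternatives and 1 added after seeing the data are covered in the closing section. Loess (span 0.3) and normexp (offset 50) used limma 3.58.1 in R 4.3.3, and the rest numpy 2.4.6 and pandas 2.3.3 under Python 3.11.15. The steps were tested on simulated data. The array software and background spots of the deposited signals are not given in the sources used here.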

Additional observations from a re-analysis of the deposited data

How the results depend on the processing

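The direction of each factor gene's ratio past 2-fold held under all alternatives that gave a value. Counts of factor genes past 2-fold differed from the reported ones as follows. In C2C12-DF over C2C12-PR, the count of higher genes was 0 with the spot mean, where the detection limit of C2C12-PR was raised by a bright blank spot, and 2 at a threshold of 1.5-fold. In C2C12-W4-08 over C2C12-PR, 1 was higher with the local background, in the unscaled deposited table and at 1.5-fold, in each case Myf5. The count of lower genes there was 2 with the local background, block centring, both together, loess and the scaled deposited table, where Myog joined Myod1, 3 at 1.5-fold, and 0 in the unscaled deposited table and at 4-fold. In C2C12-W4-08 over C2C12-DF, 1 was higher in both forms of the deposited table, which was Myf6 near its detection limit, and the count of lower genes was 2 with normexp and in the unscaled table and 1 at 4-fold. The counts were those reported with quantile normalization, 75th percentile scaling, no detection rule and a minimum signal of 20. In the unscaled table the median probe lay at log2 ratios of 0.14, 0.57 and 0.46, and with no detection rule at -0.21, -0.17 and -0.17. With detection by the spot median, added after seeing the data, the spot mean gave the counts of the main setting. Among the lists, the target genes higher in C2C12-DF numbered 6 to 18 around 15 and those lower in C2C12-W4-08 2 to 7 around 5, the inhibitors lower in C2C12-DF 3 to 5 around 5, the upstream factors in C2C12-W4-08 0 to 5 higher around 2 and 1 to 4 lower around 4, and the kinases lower there 1 to 3 around 3. The mean over the probes of a gene was not run, since each factor had 1 probe. No paired analysis was possible because each condition had 1 array. With the blank SD at 1.22, 0.988 and 0.346 of signal, ratios of probes as dim as Myf6 are not resolved, and no setting replaces the missing replicates.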
